A study of Onthophagus taurus with 96 samples.

Results

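The juvenile hormone genes were chosen by name, as rows of the FPKM table named Dmel-Tmp-met, Dmel-Tmp-gce, Dmel-Tmp-kr-h1, Dmel-Tmp-tai, Dmel-Tmp-jhamt, Dmel-Tmp-jhe, Dmel-Tmp-jheh1, Dmel-Tmp-jheh2 or Dmel-Tmp-jheh3. The names follow *Drosophila melanogaster*. Of the 9 names, 4 matched a row each among the 17483 genes of the table, namely Dmel-Tmp-gce (OTAU012996), Dmel-Tmp-kr-h1 (OTAU000144), Dmel-Tmp-jhamt (OTAU012217) and Dmel-Tmp-jheh2 (OTAU012141). The other 5 names had no row of exactly that name and were not analysed here. On the scaffolds of the gene models used by the authors, *gce* lies on Scaffold 229 (plus strand, 80812 to 107580), *kr-h1* on Scaffold 5 (minus strand, 2003456 to 2007307), *jhamt* on Scaffold 184 (minus strand, 7688 to 9314) and *jheh2* on Scaffold 1229 (minus strand, 62477 to 63730). The *jheh2* model lies within the span of OtauTmpS012138 on the opposite strand (11209 to 64955). The sources used here do not say whether reads were counted by strand, so the values of *jheh2* are uncertain. The other 3 models overlap no other model.

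Juvenile hormone is a sesquiterpenoid hormone of insects, made by a pair of small glands behind the brain, the corpora allata. It keeps larvae from entering metamorphosis, and in horned beetles it is a classic regulator of horn growth. Its synthesis ends with steps that need the methyltransferase encoded by *jhamt*, and it is broken down by an esterase (*jhe*) and by epoxide hydrolases (*jheh1*, *jheh2* and *jheh3*). It acts through a receptor of the bHLH-PAS family, encoded in *Drosophila* by the paralogues *Met* and *gce* and in most other insects by a single *Met* gene. The receptor works with the partner encoded by *tai*, and its best-known target is *kr-h1*, a zinc finger transcription factor.

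The study asked how *doublesex* (*dsx*), the gene at the end of the insect sex determination cascade, shapes sexual dimorphism in the bull-headed dung beetle *O. taurus*. Larvae in their last instar received 0.5 μg of double-stranded RNA against the *dsx* region common to all isoforms (dsxRNAi) or, as controls, 1 μg of double-stranded RNA made from a plasmid vector, in a volume of 3 μl. RNA of 4 tissues was taken from each of 6 dsxRNAi females, 6 dsxRNAi males, 6 control females and 6 control males, scored as pupae on their first day, which gave 96 libraries in 16 groups of 6. Libraries of different tissues therefore shared animals, although the labels do not name the animal of a library. The tissues were the brain, the dorsal epidermis of the first thoracic segment (thoracic horns), the dorsal head epithelium (head horns) and the epidermis of the rear abdomen (genitalia). The knockdown acted on the whole animal, the tissues were dissected pieces with every cell type they held, and parents were field-collected beetles. In such pieces fewer cells of a type and less RNA per cell cannot be told apart.

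The libraries held 3615803 to 19008005 reads assigned to genes. The *dsx* transcript was lower in dsxRNAi than in control animals in 4 of 8 comparisons by the two-sided exact permutation test (p-values adjusted over 8), namely in males of the 3 epithelia (adjusted p = 0.0058 in each) and in females of the thoracic horns (adjusted p = 0.013). In brains *dsx* was at 0.167 to 0.456 CPM on average in every group, and the exact test gave adjusted p = 0.80 in either sex. In females the adjusted p of the exact test was 0.12 in head horns and 0.22 in genitalia. The brain libraries carried their markers, with 360 to 476 summed FPKM of 5 neuronal genes in brains and 2.67 to 40.9 elsewhere. Epidermal markers (6 genes) summed to 1253 to 8582 FPKM in the epithelia and to 59.2 to 191 FPKM in brains. Muscle markers (7 genes) were high in all genitalia libraries (1006 to 3601 FPKM) and varied among horn libraries (7.85 to 2352 FPKM). The glial marker on the list had no row of its name.

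The 4 genes differed widely in level. Per length, *gce* averaged 10.8 FPKM over the 96 libraries, *kr-h1* 0.204 FPKM, *jhamt* 0.128 FPKM and *jheh2* 0.0455 FPKM. Reads of *gce* were found in all 96 libraries (70 to 1010 reads). Reads of *kr-h1* were found in 72 libraries, of *jhamt* in 44 and of *jheh2* in 35. Over all libraries *gce* held 35960 reads, *kr-h1* 536, *jhamt* 207 and *jheh2* 65. The receptor gene was thus the only member that passed the filter on low counts in every comparison.

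The receptor gene *gce* was expressed in every library, and its group means spanned less than a factor of 2 over the 4 tissues, both sexes and both treatments. Its level is given in CPM, reads of the gene scaled to a common library size, with TMM factors, which assume that most genes do not differ between libraries. In brains the lowest, median and highest library had 27.7, 31.4 and 34.4 CPM in dsxRNAi females, 28.8, 32.1 and 36.7 CPM in dsxRNAi males, 29.2, 31.5 and 34.1 CPM in control females, and 29.7, 34.7 and 37.6 CPM in control males. Brain libraries thus lay close together and the 4 groups overlapped. In thoracic horns the values were 10.96, 38.5 and 53.1 CPM in dsxRNAi females, 36.7, 41.3 and 45.96 CPM in dsxRNAi males, 29.7, 41.8 and 54.5 CPM in control females, and 26.6, 35.99 and 41.4 CPM in control males. The lowest value of the series was that of library S29, a dsxRNAi female thoracic horn library with 70 *gce* reads.

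In head horns *gce* had 31.4, 45.6 and 62.5 CPM in dsxRNAi females, 38.8, 47.5 and 83.95 CPM in dsxRNAi males, 38.3, 49.7 and 59.5 CPM in control females, and 31.6, 39.1 and 49.3 CPM in control males (lowest, median and highest library). In genitalia it had 30.2, 46.8 and 76.1 CPM in dsxRNAi females, 31.7, 36.8 and 46.7 CPM in dsxRNAi males, 23.6, 33.1 and 62.9 CPM in control females, and 23.4, 35.5 and 40.4 CPM in control males. Female libraries of the genitalia were more scattered than male ones, with an SD of 17.9 CPM in dsxRNAi females and 16.2 CPM in control females, against 5.03 CPM in dsxRNAi males and 6.18 CPM in control males (n = 6 each). Ordered by mean, the 16 groups ran from 31.4 CPM in control female brains to 53.7 CPM in dsxRNAi male head horns, and every group differed from the next in that order by less than the smaller of their SDs. Sorting places like means side by side, so this says nothing of groups far apart in the order. The highest group mean was 1.71 times the lowest. Over the 8869 genes with a mean of at least 5 CPM the median of this ratio was 2.20, and 30.9% of them had a smaller ratio than *gce*.

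**Figure D1:**
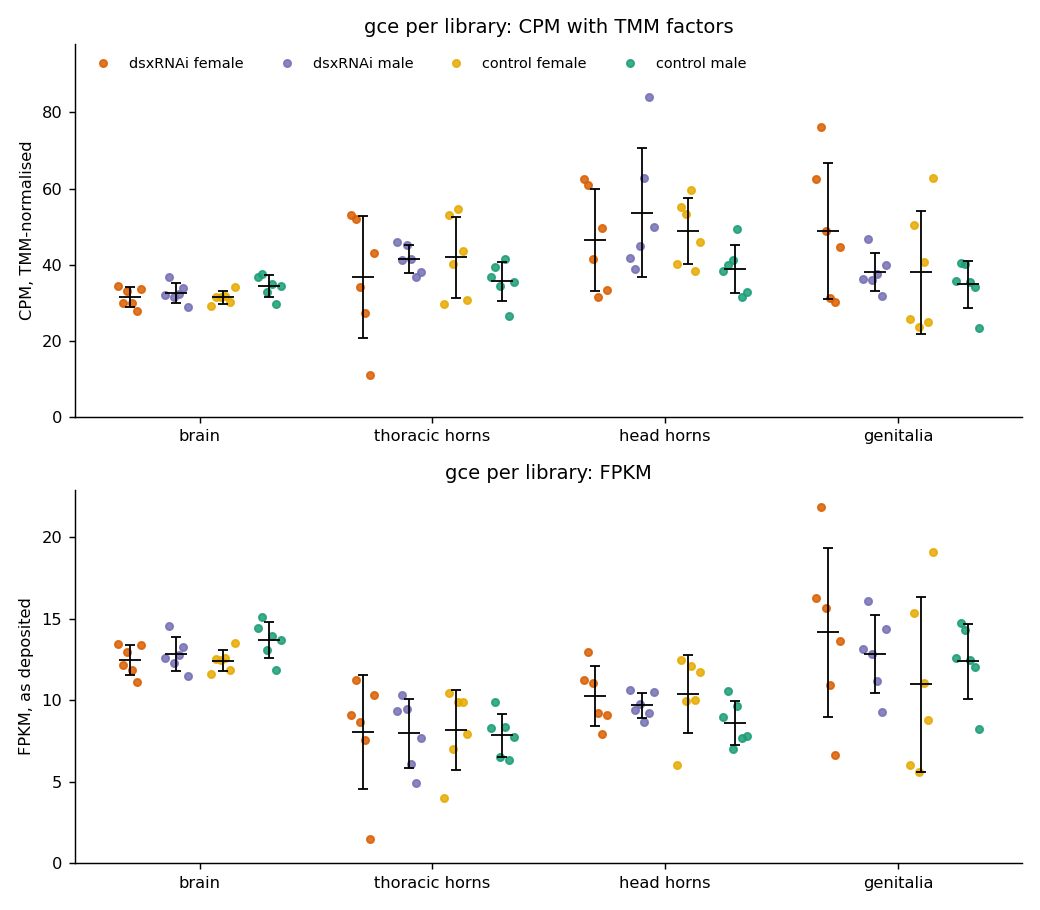
Expression of gce in each of the 96 libraries, as CPM with TMM factors (upper panel) and as deposited FPKM (lower panel), by tissue and group. Each point is a library, and the bars give the mean and SD of 6 libraries. Brain points lie close together in both panels, between 27.7 and 37.6 CPM, and brains are the lowest tissue in the upper panel but not in the lower one.

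No juvenile hormone gene passed the test between the sexes or with *dsx* knockdown within a tissue. Across 20 within-tissue contrasts, which include the interaction of sex and treatment in each tissue, the 4 genes gave 80 pairs of gene and contrast. The filter on low counts left 25 of these for the test, 20 of *gce* and 5 of *kr-h1* in genitalia. With the quasi-likelihood test of edgeR and Benjamini-Hochberg adjustment, 0 of the 25 were called at an adjusted p under 0.05, and 3 had an unadjusted p under 0.05. DESeq2 called 0 as well. So did edgeR with no filter on low counts, with DESeq2's size factors, with all 24 libraries of a tissue in one fit and with library totals in place of TMM factors.

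The same test called few genes of the whole table in most of these contrasts, and the members are to be read against those shares. In brains it called 0.16% of all genes tested between control females and males, 0.14% between dsxRNAi females and males, and 0% in both knockdown contrasts and the interaction. Thoracic horns gave 0.355% between control females and males, 0% between dsxRNAi females and males and in both knockdown contrasts, and 0.0105% in the interaction. In head horns it called 6.53% between control females and males, 0% between dsxRNAi females and males, 0.393% between dsxRNAi and control males, 0% between dsxRNAi and control females, and 1.44% in the interaction. In genitalia the shares were 10.3% between control females and males, 2.06% between dsxRNAi females and males, 0% between dsxRNAi and control males, 0.0101% between dsxRNAi and control females, and 0.0191% in the interaction. The alternatives called other numbers of genes. Between control females and males in genitalia DESeq2 called 1774 genes higher and 969 lower of 14830. With no filter on low counts edgeR called 205 and 245 of 14947 there, and with library totals 120 and 637 of 10014. A count of 0 members is to be read against the numbers of its own setting.

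The 3 contrasts of *gce* with an unadjusted p under 0.05 were small and did not pass. Control females against control males in the brain gave a log2 fold change of -0.14 ± 0.06 (SE, n = 6 each, adjusted p = 0.52 by edgeR). In head horns control females stood at 48.7 ± 8.6 CPM and control males at 38.8 ± 6.4 CPM (SD, n = 6 each), which gave a log2 fold change of 0.32 ± 0.14 (SE, adjusted p = 0.17 by edgeR). Also in head horns, dsxRNAi males stood at 53.7 ± 17.05 CPM and control males at 38.8 ± 6.4 CPM (SD, n = 6 each), which gave a log2 fold change of 0.47 ± 0.19 (SE, adjusted p = 0.28 by edgeR). That last value rests in part on library S59, the dsxRNAi male head horn library at 83.95 CPM, without which it was 0.29 (adjusted p = 0.47 by edgeR) and with library totals 0.18. The interaction of sex and treatment for *gce* in head horns was -0.53 on the log2 scale with a 95% interval of -1.10 to 0.04.

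For the other contrasts of *gce*, the intervals say how large a difference these libraries leave room for. Between dsxRNAi and control females the estimates ran from -0.19 to 0.37 on the log2 scale over the 4 tissues, with interval bounds between -0.89 and 1.02. Between dsxRNAi and control males they ran from -0.08 to 0.47, with bounds between -0.23 and 0.88. In brains, where libraries were most alike, dsxRNAi females and control females differed by 0.00 with an interval of -0.13 to 0.13 on the log2 scale.

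Between tissues the picture of *gce* depended on how libraries were scaled. With TMM factors, 3 of the 12 contrasts of brain against an epithelium were called, all lower in brain, where 32.8% of all genes tested over these contrasts were called lower in brain and 65.4% in either direction. In dsxRNAi males *gce* was lower in brain than in head horns (32.5 ± 2.6 CPM against 53.7 ± 17.05 CPM, SD, n = 6 each), with a log2 fold change of -0.73 ± 0.14 (SE, adjusted p = 1.4e-04 by edgeR). Also in dsxRNAi males it was lower in brain than in thoracic horns (32.5 ± 2.6 CPM against 41.4 ± 3.7 CPM, SD, n = 6 each), with a log2 fold change of -0.35 ± 0.14 (SE, adjusted p = 0.037 by edgeR). This last call was lost with DESeq2 (adjusted p = 0.081), with DESeq2's size factors in edgeR (0.076) and with no filter on low counts (0.062), and in 8 of 24 fits that left out a library. In control females *gce* was lower in brain than in head horns (31.4 ± 1.7 CPM against 48.7 ± 8.6 CPM, SD, n = 6 each), with a log2 fold change of -0.65 ± 0.21 (SE, adjusted p = 0.0100 by edgeR).

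No contrast of brain against an epithelium was called for *gce* in control males or in dsxRNAi females. In control males the 3 estimates lay between -0.12 and 0.03 on the log2 scale. In dsxRNAi females they were more negative, at -0.17 against thoracic horns, -0.52 against head horns and -0.64 against genitalia, but their libraries were scattered and the SE was 0.29 in each. The contrast with genitalia had an unadjusted p of 0.037 and an adjusted p of 0.058 by edgeR, and it was called by DESeq2 (adjusted p = 0.047) and in 12 of 24 fits that left out a library. Without library S29 the contrasts with head horns (-0.55, adjusted p = 0.038) and genitalia (-0.67, adjusted p = 0.013) were called by edgeR, so the count of brain calls was 6 without that library and 4 with it, *kr-h1* included. Whether the contrast differs between the 4 groups of animals was not tested.

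Scaled by library totals, the called contrasts of *gce* turned round. The deposited FPKM values follow library totals, and by them *gce* was at 11.1, 12.7 and 15.1 FPKM in the lowest, median and highest brain library. Thoracic horns had 1.44, 8.32 and 11.3 FPKM, head horns 6.04, 9.71 and 12.9 FPKM, and genitalia 5.59, 12.7 and 21.9 FPKM. With library totals in edgeR, 6 of 12 brain contrasts were called, all higher in brain, where 58.8% of all genes tested were called higher in brain. The called estimates ran from 0.54 to 0.93 on the log2 scale, and the contrast of dsxRNAi males with head horns became 0.54 (adjusted p = 0.011 by edgeR). That scaling also moved the median of all genes tested in the 12 contrasts to between 0.17 and 1.12 on the log2 scale, so genes in general stood higher in brain by it. Beside this, the 20 most abundant genes took 8.15 to 8.95% of all reads in brain libraries, while thoracic horns had 24.9 to 50.4%, head horns 23.4 to 52.7% and genitalia 11.9 to 21.6%. The part of these shares in the difference between the scalings was not tested.

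**Figure D2:**
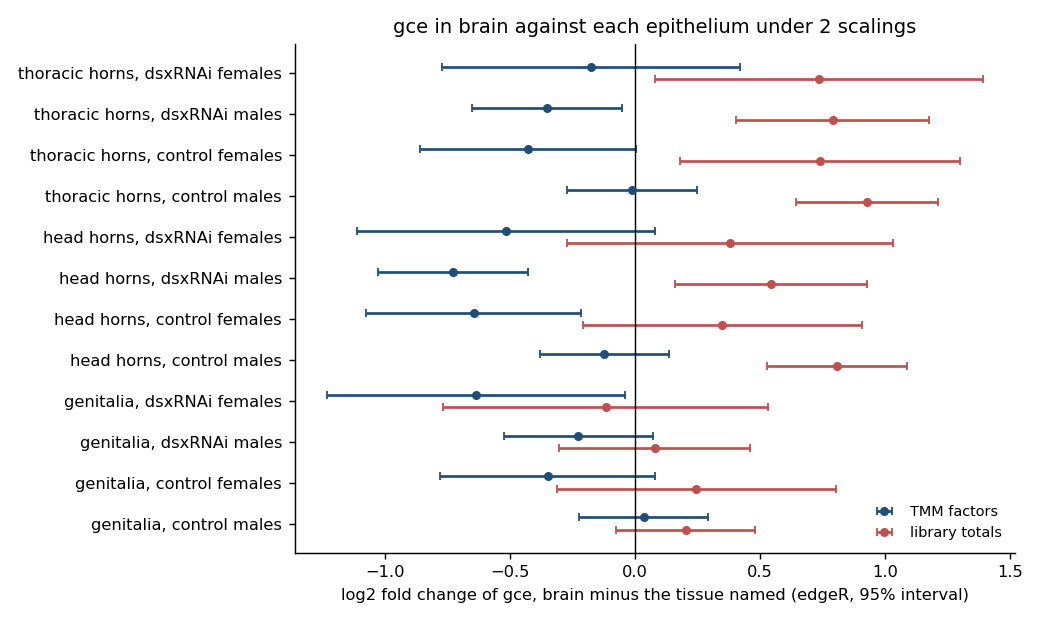
Log2 fold change of gce between brain and each epithelium, with 95% intervals, in the 4 groups of animals (edgeR, 24 libraries in each fit). Dark blue points use TMM factors and red points library totals. The contrasts with head horns are negative with TMM factors, between -0.73 and -0.12, and positive with library totals.

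Among the epithelia, *gce* was called in a single contrast. In dsxRNAi males it was lower in genitalia than in head horns (37.99 ± 5.03 CPM against 53.7 ± 17.05 CPM, SD, n = 6 each), with a log2 fold change of -0.50 ± 0.14 (SE, adjusted p = 0.0090 by edgeR). Over the 4 groups of animals 42.5% of all genes tested were called between genitalia and head horns. Without library S59 the value was -0.33 (adjusted p = 0.027), and with library totals it was 0.46 (adjusted p = 0.033 by edgeR), the opposite direction. By totals 2 of 4 contrasts of genitalia with head horns were called higher in genitalia, where 48.8% of all genes were, and 3 of 4 contrasts of genitalia with thoracic horns, where 53.5% of all genes were. Between head horns and thoracic horns, where 5.57% of all genes were called, *gce* was called in 0 of 4 contrasts by edgeR and by DESeq2, with 1 unadjusted p under 0.05 (0.38 ± 0.14 in dsxRNAi males, SE, adjusted p = 0.14 by edgeR). Without library S59 that value was 0.20 (adjusted p = 0.39 by edgeR).

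The genes whose pattern over the 16 groups was most like that of *gce* were *msi* (musashi, an RNA-binding protein), *hrg* and *cg1832*. Pearson's r over the 16 group means of log2(CPM + 1) was 0.94 for *msi*, 0.89 for *hrg* and 0.88 for *cg1832*, among 5979 genes that carry a name of another species and have a mean of at least 5 CPM. By Spearman's rho *msi* was again the first (0.96), with 0.92 for *cg1832* and 0.91 for *hrg*. The group means share libraries and TMM factors, so these are descriptions of likeness. The other 3 members had mean levels under 1 CPM and were not compared in this way.

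The target gene *kr-h1* had most of its reads in genitalia. Of its 536 reads, 421 were in the 24 genitalia libraries, and brains held 71, head horns 27 and thoracic horns 17. In genitalia the lowest, median and highest library had 4, 10.5 and 31 reads in dsxRNAi females, 6, 20.5 and 59 reads in dsxRNAi males, 6, 10 and 24 reads in control females, and 3, 12.5 and 53 reads in control males. No library of the horns had more than 3 reads, and of the brain libraries only 1 had more than 7. That library, S11 from a dsxRNAi male with 16 *kr-h1* reads, also had 482 reads of *akh*, the adipokinetic hormone gene of the corpora cardiaca, and 923 summed FPKM of muscle markers, where the median brain library had 41.5 FPKM. It was also the deepest brain library (13326938 reads). Brain library S5, from a dsxRNAi female, had 579 *akh* reads and 509 FPKM of muscle markers with 5 *kr-h1* reads. The part of attached tissue in the *kr-h1* reads of S11 was not tested.

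**Figure D3:**
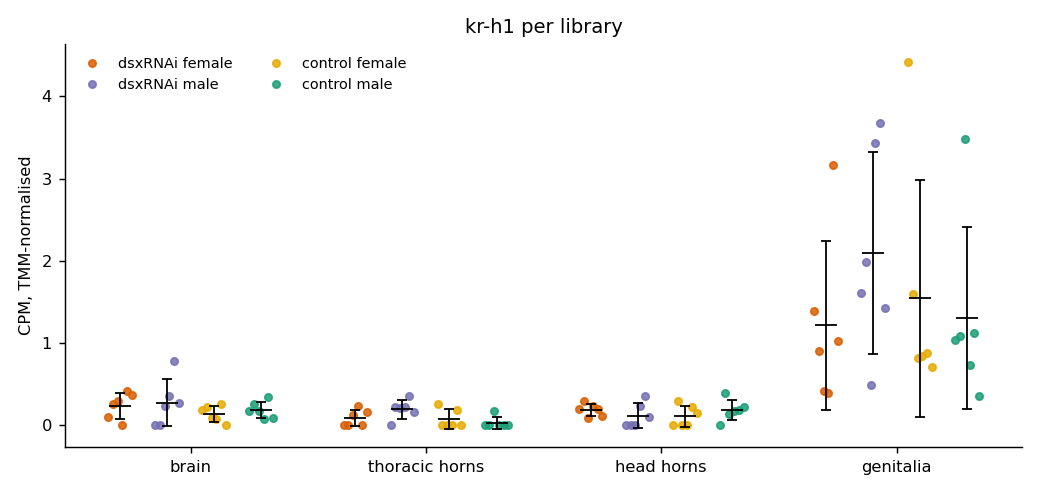
Expression of kr-h1 in each of the 96 libraries, as CPM with TMM factors, by tissue and group. Each point is a library, and the bars give the mean and SD of 6 libraries. Genitalia stand above the other tissues in all 4 groups of animals, with group means between 1.22 and 2.1 CPM.

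In dsxRNAi males Dmel-Tmp-kr-h1 passed the filter in the comparison of tissues, and it did so through the genitalia libraries, in which it is high (6 to 59 reads each). A gene admitted in this way had to differ, so the edgeR values of this group are a description. Genitalia stood at 2.1 ± 1.23 CPM, against thoracic horns at 0.192 ± 0.114 CPM, 0.114 ± 0.150 CPM in head horns and 0.273 ± 0.289 CPM in brains (SD, n = 6 each). The log2 fold change by edgeR was 3.30 ± 0.74 between genitalia and thoracic horns (SE, adjusted p = 0.0023) and 4.27 ± 0.82 between genitalia and head horns (SE, adjusted p = 3.4e-04). Brain against genitalia gave -2.78 ± 0.65 (SE, adjusted p = 7.7e-04 by edgeR). In dsxRNAi males 13.1% of all genes tested were higher in genitalia than in thoracic horns and 19.4% higher than in head horns, and over all 4 groups of animals 38% were called between genitalia and thoracic horns. The tests that used no filter follow.

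In the other 3 groups of animals *kr-h1* did not pass the filter, and its reads were compared directly. Pooled over 6 libraries, dsxRNAi female genitalia held 73 reads and thoracic horns 4, a ratio of 16.7 after division by library totals (95% interval 6.25 to 62.9, from the exact binomial interval, counting error only). Control female genitalia held 74 reads and thoracic horns 3, a ratio of 29.5 (9.70 to 146). Control male genitalia held 111 reads, against 1 in thoracic horns, a ratio of 83.6 (14.7 to 3332). Library S93 held 53 of those 111 reads, and without it the ratio was 54.2 (9.35 to 2177). The ratio to brain was smaller, at 3.37 (1.97 to 6.10) in dsxRNAi females, 5.06 (3.41 to 7.74) in dsxRNAi males, 6.25 (3.30 to 13.1) in control females and 6.59 (3.70 to 12.8) in control males, where it was 4.27 (2.31 to 8.49) without S93.

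The two-sided exact permutation test on CPM gave p = 0.0022, the smallest that 6 against 6 libraries can give, for genitalia against thoracic horns in all 4 groups of animals. The exact p was the same for genitalia against head horns in 3 groups and was 0.0043 in control males, and between 0.0022 and 0.0065 for brain against genitalia. These are unadjusted values from 24 tests of this gene between tissues, and they treat libraries of one animal as independent. With libraries numbered 24, 48 or 72 apart taken as one animal, the exact sign-flip test of 6 pairs gave p = 0.031, the smallest it can give, in all 12 contrasts of genitalia with another tissue. With no filter on low counts, edgeR called Dmel-Tmp-kr-h1 higher in genitalia in all 12 of its contrasts with another tissue, with log2 fold changes of 3.32 to 5.00 against thoracic horns, 2.70 to 4.27 against head horns and -3.39 to -2.31 for brain against genitalia. In those fits 26.5% of all genes were called between genitalia and thoracic horns, 30% between genitalia and head horns, and 48.6% between brain and epithelia. Muscle markers were also highest in genitalia (1006 to 3601 summed FPKM), and their part in the *kr-h1* reads was not tested.

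Within genitalia *kr-h1* was not called in any contrast. Means were 1.22 ± 1.03 CPM in dsxRNAi females, 2.1 ± 1.23 CPM in dsxRNAi males, 1.54 ± 1.44 CPM in control females and 1.30 ± 1.11 CPM in control males (SD, n = 6 each). The log2 fold change was -0.30 between dsxRNAi and control females (95% interval -1.65 to 1.06), 0.67 between dsxRNAi and control males (-0.50 to 1.85), -0.77 between dsxRNAi females and males (-2.03 to 0.48) and 0.17 between control females and males (-1.11 to 1.46). These intervals leave room for changes of more than 2-fold in either sex. In the 3 other tissues *kr-h1* had too few reads to show a difference of that size. A single one of its 16 permutation tests within tissues had p under 0.05, for dsxRNAi against control males in thoracic horns (0.192 ± 0.114 against 0.0294 ± 0.0720 CPM, SD, n = 6 each, exact p = 0.028), where all libraries had 3 reads or fewer.

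The synthesis gene *jhamt* was nearly absent from brains and came from a few libraries elsewhere. Its reads in the 24 libraries of a tissue summed to 129 for genitalia, 53 for thoracic horns, 20 for head horns and 5 for brains. In brains 20 of 24 libraries had no read and the highest had 2. All 12 control brain libraries were at 0, where 3 reads over the 6 libraries of a group would be 0.0593 CPM of library totals in females and 0.0651 in males. The 6 brain libraries with 40 or more *akh* reads (40 to 579) held 3 of the 5 *jhamt* reads between them. The other 18 had 7 *akh* reads at most. Outside the brain, *akh* was also read in libraries high in *jhamt*. Library S35 had 28 *akh* reads, the most of 24 thoracic horn libraries, S59 had 48, second of 24 in head horns, and S82 had 15, the most of 24 in genitalia. The other 5 libraries with 7 or more *jhamt* reads had 2 to 11 *akh* reads. These are raw reads, and S35, S59 and S82 were the deepest libraries of their tissues (19008005, 15215467 and 15908508 reads). The head horn library with the most *akh* reads, S65 with 84, had 0 *jhamt* reads. The part of the glands behind the brain in these reads was not tested.

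The *jhamt* reads were unevenly spread within groups. A minimum of 7 reads, chosen after the values were seen, takes in 8 of the 96 libraries, and these held 69.1% of all *jhamt* reads. In dsxRNAi male genitalia the 6 libraries had 0, 0, 1, 24, 51 and 2 reads, against 1, 2, 2, 1, 0 and 2 reads in control males. In dsxRNAi male thoracic horns they had 1, 1, 0, 3, 23 and 1 reads, against 0, 0, 0, 0, 1 and 1 in control males. In dsxRNAi female genitalia the reads were 1, 5, 1, 1, 12 and 0, and in control female genitalia 10, 0, 5, 8, 0 and 0. High libraries thus occurred in dsxRNAi animals of both sexes and in control females, and every group that held one also held libraries at 0 or 1 read. The 8 libraries are not 8 animals if libraries numbered 24, 48 or 72 apart came from one animal. By that numbering they trace to 5 animals, S35, S59 and S83 to one (82 reads) and S37 and S85 to another (17 reads).

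**Figure D4:**
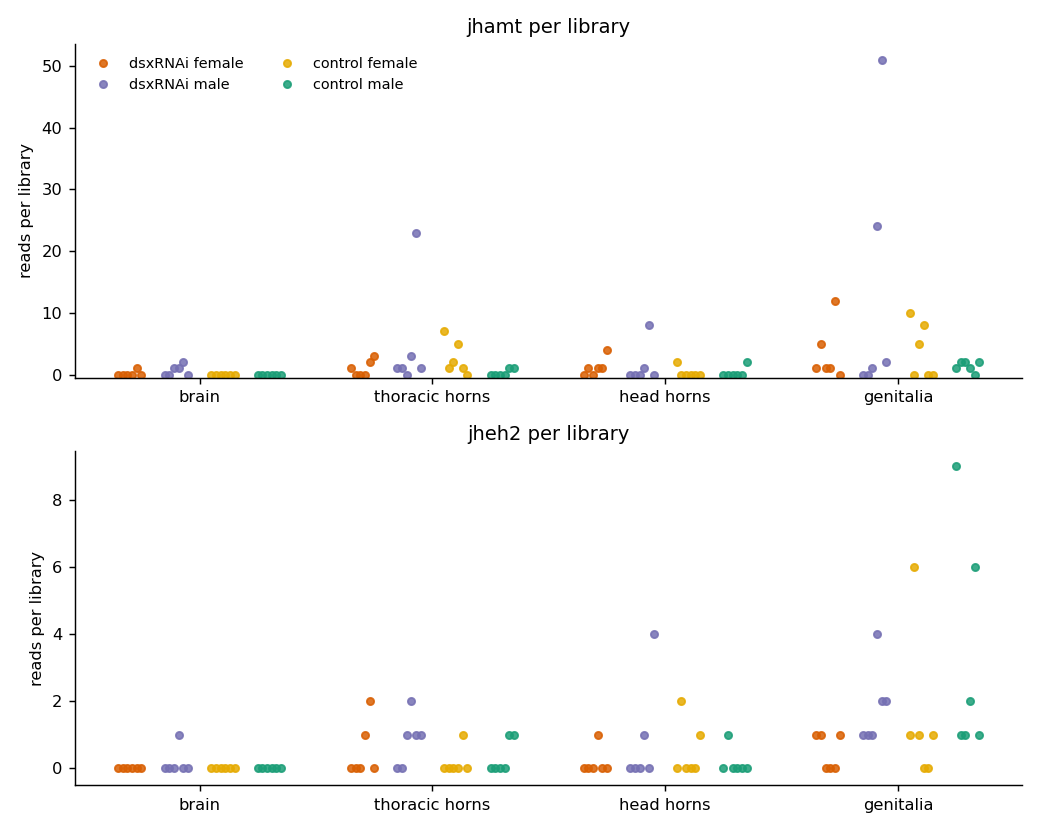
Reads of jhamt (upper panel) and jheh2 (lower panel) in each of the 96 libraries, by tissue and group, as raw counts. Each point is a library. Most points lie at 0, with isolated high libraries for jhamt in thoracic horns (23 reads) and genitalia (51 and 24 reads).

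The gene *jhamt* did not pass the filter on low counts in any contrast. By the two-sided exact permutation test on CPM, 0 of 16 contrasts within a tissue had p under 0.05, and the lowest p was 0.065, for control females against control males in thoracic horns (0.487 ± 0.682 against 0.0497 ± 0.0776 CPM, SD, n = 6 each). Of 24 contrasts between tissues 4 had an unadjusted p under 0.05, the lowest being 0.015 by the same exact test. With libraries paired by number 0 of the 24 did, the lowest p being 0.062 by the exact sign-flip test. With no filter on low counts edgeR called *jhamt* lower in brain in 6 of 12 contrasts, where 24.2% of all genes were called lower in brain, and DESeq2 in 5, where 24.3% were. Pooled over libraries, genitalia held 20 reads against 1 in brains of dsxRNAi females (ratio 15.7, 95% interval 2.51 to 651) and 78 against 4 in dsxRNAi males (18.2, 6.81 to 68.3). The intervals of the pooled ratios hold counting error only, not the spread between animals. By the exact permutation test on libraries, brain against genitalia gave p = 0.028 in dsxRNAi females and 0.14 in dsxRNAi males. The same exact test gave p = 0.18 in control females, where 3 of 6 genitalia libraries had no read, and 0.015 in control males. Single libraries carried much of the pooled ratios. Without S77 the ratio in dsxRNAi females was 7.98 (1.07 to 354), and without S83, which held 51 of the 78 reads, that in dsxRNAi males was 7.52 (2.62 to 29.6). In control females genitalia held 23 reads and brains none. The ratio was 7.13 with brains set to the floor of 3 reads over the group, and the exact 95% interval of the ratio began at 5.34. Without S85 these were 4.54 and 3.19. In control males genitalia held 8 reads and brains none, a ratio of 2.06 with brains set to the same floor, and the exact interval began at 1.32. The ratios to the floor are not lower bounds.

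The TMM factor, which is low where few genes take a large share of the reads, is given here for the 8 libraries with 7 or more *jhamt* reads. In horns S35, S37 and S59 had factors of 0.449, 0.452 and 0.367, the lowest and second lowest of 24 in thoracic horns and the lowest of 24 in head horns. Their 20 most abundant genes took 46.2 to 52.7% of all reads. Low factors also occurred with few *jhamt* reads. Thoracic horn library S29 had a factor of 0.454, a share of 50.4% and 2 *jhamt* reads. S58, with the second lowest factor in head horns (0.474), had 1 *jhamt* read. In genitalia the factors of S77, S85, S88, S83 and S82 ranked 1, 3, 5, 6 and 8 of 24 from the lowest. S87 and S73, ranked 2 and 4 among the genitalia libraries, had 5 and 1 *jhamt* reads. Factors there also differed by sex, with 0.780, 1.10 and 1.37 as the lowest, median and highest of 12 female libraries, against 1.04, 1.33 and 1.39 of 12 male libraries. The part of library composition in the *jhamt* reads was not tested.

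**Figure D5:**
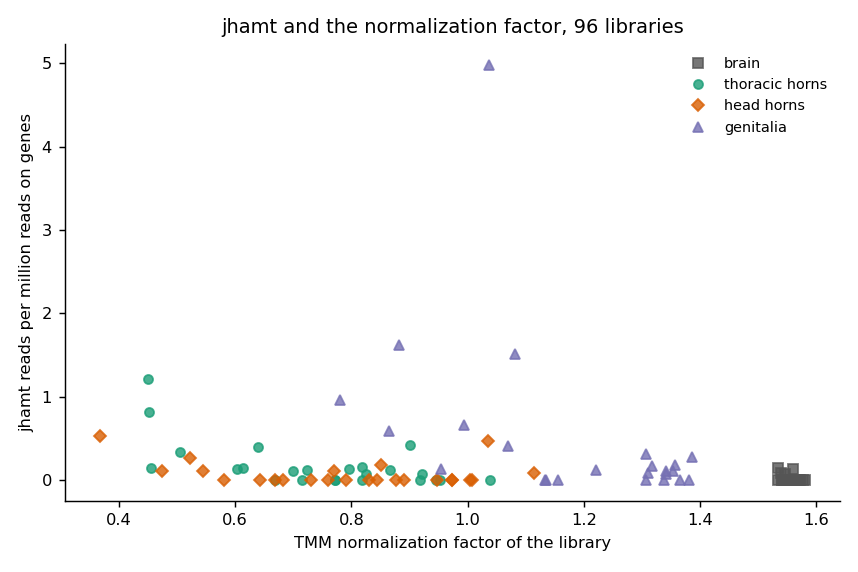
Reads of jhamt scaled to library totals, as CPM without TMM factors (vertical axis), against the TMM normalization factor of the library (horizontal axis) for the 96 libraries, by tissue. Brain libraries sit together at factors from 1.53 to 1.58 with almost no jhamt, and the high libraries of each epithelium lie at or below a factor of 1.08. Other epithelial libraries at such factors had few or no jhamt reads.

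Several of these libraries were high in *kr-h1* too, and others were not. They were picked out after the values were seen. In genitalia library S77 had the most reads of both genes among dsxRNAi females (31 of *kr-h1*, 12 of *jhamt*) and S85 among control females (24 and 10). Among dsxRNAi males S82 (59 and 24) and S83 (39 and 51) had the most of both. Among control males S93 had the most *kr-h1* reads (53) and had 2 of *jhamt*, where no library had more than 2. Among control females S88, with 8 *jhamt* reads, had 10 of *kr-h1*, the median of its group, and S86 had 17 of *kr-h1* and 0 of *jhamt*. The horn libraries S35, S37 and S59 had 3, 1 and 2 *kr-h1* reads. In S77, S85, S82 and S83 *gce* stood at 30.2, 25.6, 37.5 and 31.7 CPM, all under the mean of their group, S82 only just (37.99 CPM). The other libraries with 7 or more *jhamt* reads went both ways. Under their group means were S35 (36.7 against 41.4 CPM) and S37 (29.7 against 41.9 CPM). Above them were S88 (40.6 against 37.98 CPM) and S59 (83.95 against 53.7 CPM).

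The hydrolase gene *jheh2*, whose product degrades the hormone in *Drosophila* and other insects, was close to the limit of detection. Its reads summed to 43 for genitalia, 11 for thoracic horns, 10 for head horns and 1 for brains over 24 libraries each, and 61 of 96 libraries had none. The highest library had 9 reads and was a control male genitalia library. In genitalia it was read in 19 of 24 libraries, with 3 reads in all in dsxRNAi females, 11 in dsxRNAi males, 9 in control females and 20 in control males. Within genitalia dsxRNAi females lay under dsxRNAi males by the exact permutation test (0.0514 ± 0.0600 against 0.137 ± 0.061 CPM, SD, n = 6 each, unadjusted exact p = 0.039), the only p under 0.05 among 16 contrasts within tissues. Between tissues, brain against genitalia gave the smallest exact p of 0.0022 in dsxRNAi males and in control males. With no filter on low counts edgeR called *jheh2* lower in brain in 6 of 12 contrasts, against 24.2% of all genes, and DESeq2 in 3, against 24.3% of all genes. With libraries paired by number the 2 exact p of 0.0022 became 0.031, the smallest that the exact sign-flip test of 6 pairs can give. At these counts a difference within a tissue was hardly detectable.

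Other genes around the hormone came from a list of 55 names covering precursor synthesis, breakdown, receptor partners, response genes and the neuropeptides that act on the corpora allata. Of these, 21 matched a row. Within tissues edgeR called 5 of the 19 tested between control females and males in head horns, 3 higher and 2 lower in females, where 6.53% of all genes were called. The interaction in head horns was called for 1 of 19, and no gene of the list was called by edgeR in the other within-tissue contrasts. The interaction call and 1 of the 5 are those of *ast-c*, which entered the test through control males and had to differ, as described below. The 5 of 19 therefore do not measure an excess over 6.53%. These calls of *ast-c* are also among the 6 given next. With edgeR the list had 6 calls over the 20 within-tissue contrasts, and with DESeq2 17, of which 5 were between control females and males in head horns. The 17 included *cyp6g2* (Dmel-Tmp-cyp6g2, 1.04, adjusted p = 0.0017 by DESeq2) between dsxRNAi and control males in head horns. In that contrast DESeq2 called 269 genes higher and 257 lower of 14411 tested. With no filter on low counts the list had 4 calls, with library totals 4, with DESeq2's size factors 7 and with all libraries of a tissue in one fit 7 (over 16 contrasts, without the interactions). The settings also differed over the whole table. Between control females and males in head horns DESeq2 called 584 genes higher and 632 lower of 14386, against 294 and 301 of 9111 by edgeR. With no filter 213 and 257 of 14495 were called there, and with library totals 91 and 100 of 9111. The counts of the list are no measure of an excess under any setting. The median log2 fold change of the list between control females and males in head horns was -0.03, and that of all genes tested was at most 0.02 in the 4 tissues.

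The 5 genes have different roles. Higher in control females were *cyp6g2*, a cytochrome P450 tied to hormone synthesis in *Drosophila* (62.1 ± 12.8 against 27.9 ± 8.1 CPM, SD, n = 6 each, log2 fold change 1.15 ± 0.20), *cg8239*, which the list places in the mevalonate pathway (15.9 ± 3.4 against 9.99 ± 2.36 CPM, 0.67 ± 0.17), and *fs(2)ket*, the importin beta that carries the receptor into the nucleus in *Drosophila* (214 ± 26 against 164 ± 15 CPM, 0.38 ± 0.09). Lower in control females was *chd64*, a calponin-like protein reported to bind at hormone response elements in *Drosophila* (124 ± 31 against 193 ± 12 CPM, -0.64 ± 0.14). The adjusted p by edgeR was 0.0064 for *cyp6g2*, 0.039 for *cg8239*, 0.027 for *fs(2)ket* and 0.019 for *chd64*. With library totals the 4 kept their direction, and of these only *cyp6g2* was still called. In dsxRNAi animals none of the 4 was called between the sexes in head horns. There edgeR called 0 of 9121 genes tested, so this is no result about the 4. In these animals *cyp6g2* stood at 58.6 ± 18.5 CPM in females and 56.4 ± 16.3 CPM in males (SD, n = 6 each).

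The fifth gene was *ast-c*, which encodes allatostatin C, a peptide that inhibits hormone synthesis in several insects. In head horns its lowest, median and highest library had 0, 0.258 and 0.615 CPM in control females, against 3.21, 12.7 and 69.9 CPM in control males, so the groups did not overlap. Control female libraries had at most 6 reads and control male ones up to 497, so the gene entered the test through control males and had to differ, and no fold change is given. In dsxRNAi animals the values were 0.245, 0.323 and 5.29 CPM in females and 0.643, 2.27 and 5.03 CPM in males, which overlap. The interaction of sex and treatment, which rests on the same control males, had an adjusted p of 0.048 by edgeR, where 1.44% of all genes were called, and it was lost with no filter on low counts (adjusted p = 0.065 by edgeR). Over the alternatives run for Dmel-Tmp-ast-c its adjusted p lay between 0.0012 and 0.065 (DESeq2 and edgeR).

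Between tissues, 3 genes of the list had the largest differences between brain and epithelia in control males, and all 3 encode peptides of the allatostatin families. They were *mip* (a myoinhibitory peptide, 49.7 ± 3.1 CPM in brains and 0.122 to 0.268 CPM on average in the epithelia), *ast-cc* (2.44 ± 0.28 CPM in brains and 0.0214 to 0.0520 CPM in the epithelia) and *ast-c* (23.2 ± 1.4 CPM in brains, 1.32 ± 0.90 CPM in thoracic horns and 1.83 ± 0.92 CPM in genitalia, SD, n = 6 each). In control male epithelia no library had more than 7 reads of *mip* or 2 of *ast-cc*, and both passed the filter through brains, so no fold change or test is given for them. For *ast-c* brain and head horns differed by 0.11 on the log2 scale (adjusted p = 0.86 by edgeR), where control male head horns had 22.3 ± 25.6 CPM (SD, n = 6). With library totals the contrast of Dmel-Tmp-ast-c with head horns was 1.26 (adjusted p = 0.017 by edgeR). In control males 10 to 13 of the 21 genes were called higher and 7 lower in brain than in each epithelium, where 37.5% of all genes were called higher and 36.9% lower. The genes called higher include *mip* and *ast-cc*, which passed the filter through brains, so these counts do not measure an excess over 37.5%.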

How the data were processed

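RNA of 96 tissue samples was sequenced as single-end reads from stranded libraries. Per the labels and the methods of the study, the authors trimmed reads with Trimmomatic 0.32, aligned them with TopHat2 2.1.0 to *O. taurus* gene models and counted reads per gene with HTSeq 0.6.1p1. The deposited counts are whole reads per gene, and the deposited FPKM were made from them by the authors with DESeq2. FPKM followed library totals. The strand setting of the counting is not given in the sources used here.

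Groups came from the labels (tissue, sex, treatment), with 6 pupae in each. Counts were tested with edgeR 4.0.16 (quasi-likelihood test, TMM factors, filterByExpr, Benjamini-Hochberg over all genes tested, threshold 0.05) in R 4.3.3. Each within-tissue contrast was fitted on its own 12 libraries, interactions on 24 libraries of a tissue, and tissues on the 24 libraries of one sex and treatment. Each pupa gave 4 tissues, which these fits do not model, and a fit with a replicate block for libraries numbered 24, 48 or 72 apart, chosen after seeing the data, was an alternative. P-values measure the spread between pupae of a group. Genes with few reads were compared by two-sided exact permutation tests on CPM, unadjusted, a choice made after seeing the data, as was scaling by library totals. DESeq2 1.42.0, its size factors in edgeR, no filter, all libraries of a tissue in one fit and leaving out each library were the other alternatives. The tests were tested on simulated data. The genes and lists were chosen with earlier results of these data known. Named genes are the rows that match the 9 names. Fold changes are given where called or at an unadjusted p under 0.05, with some others beside them. Other pathway genes are named where called within a tissue, or as the 3 with the largest brain difference in control males. The 3 genes most like *gce* were taken by Pearson's r.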

Additional observations from a re-analysis of the deposited data

Results flagged for a closer look

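In 11 of the 35 groups of 6 libraries tested, a library of a juvenile hormone gene stood apart from the others by Dixon's criterion, which chance meets in about 5% of groups where values are normally distributed. That rate does not hold for counts as low and skewed as those of *kr-h1*, *jhamt* and *jheh2*, which make up 10 of the 11, so 11 of 35 is no measure of excess. For *kr-h1* these were S77 at 3.17 CPM in dsxRNAi female genitalia (the other 5 at 0.396 to 1.39), S85 at 4.42 CPM in control female genitalia (0.706 to 1.60) and S93 at 3.48 CPM in control male genitalia (0.354 to 1.12). For *jheh2* it was S86 at 0.564 CPM in control female genitalia (0 to 0.184).

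For *jhamt* these were S35 at 2.69 CPM in dsxRNAi male thoracic horns (the other 5 at 0 to 0.664), S37 at 1.81 CPM in control female thoracic horns (0 to 0.624) and S59 at 1.43 CPM in dsxRNAi male head horns (0 to 0.229). In genitalia they were S77 at 1.23 CPM in dsxRNAi females (0 to 0.377), S83 at 4.804 CPM in dsxRNAi males (0 to 1.40) and S85 at 1.84 CPM in control females (0 to 0.677). For *gce* it was S96 at 23.4 CPM in control male genitalia, the other 5 being at 34.2 to 40.4 CPM.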

How the results depend on the processing

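Within tissues, and between head horns and thoracic horns, the count of juvenile hormone genes called was 0 under every alternative and with each library left out. Between head horns and thoracic horns 5.75% of all genes were called with DESeq2, 3.51% with no filter and 4.5% with library totals. Between brain and epithelia the count of 4 became 15 with DESeq2, 19 with no filter on low counts and 9 with library totals, and lay between 3 and 6 with a library left out. Of all genes, 50% were called in these contrasts with DESeq2, 48.6% with no filter and 73.4% with library totals, against 65.4% by the test of the report. Between genitalia and thoracic horns the count of 1 became 4 with each of these, and stayed at 1 with a library left out. Of all genes, 29.9% were called there with DESeq2, 26.5% with no filter and 56.8% with library totals, against 38% by the test of the report. Between genitalia and head horns the count of 2 became 5 with DESeq2 and 6 with no filter, and was 2 to 3 with a library left out. There 33.4% of all genes were called with DESeq2 and 30% with no filter, against 42.5% by the test of the report. Of the brain calls, *gce* had 3 with DESeq2 and 2 with no filter, and the rest were those of the 3 genes with few reads, most of which the filter leaves out. The counts of 4, 1 and 2 by the test of the report each include 1 call of *kr-h1* in dsxRNAi males, where it passed the filter through genitalia.

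With library totals the log2 fold change of *gce* turned to 0.79 for brain against thoracic horns and 0.54 for brain against head horns in dsxRNAi males, to 0.35 for brain against head horns in control females, and to 0.46 for genitalia against head horns in dsxRNAi males. The cause was not tested. The 3 called log2 fold changes of *kr-h1* between tissues in dsxRNAi males kept direction and call in every alternative run for them. As the gene passed the filter through genitalia, this is a description and adds no support. Its other fold changes were not compared in this way. Depth limits *kr-h1* outside genitalia, *jhamt* and *jheh2*, with few reads per library.

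The pairing of tissues by animal was tried after seeing the data. The labels number the libraries 1 to 96 and do not name animals, but libraries of one sex and treatment whose numbers differ by 24, 48 or 72 deviated together from their group means (correlation over 0.1 in 142 of 144 pairs, own number the best match in 132). With this number as a replicate block in edgeR the count of genes called between brain and epithelia was 5 (70.3% of all genes). It was 1 between genitalia and thoracic horns (45.3% of all genes), 2 between genitalia and head horns (49.8%) and 0 between head horns and thoracic horns (7.45%). Each count other than 0 again includes 1 call of *kr-h1*. The added call was *gce* lower in brain than in genitalia of dsxRNAi females (-0.54, adjusted p = 0.042 by edgeR), and no call was lost.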
